A study of Mus musculus with 18 samples.

Results

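The immunoglobulin variable (V) genes are the gene segments that encode most of the antigen-binding part of an antibody chain: Ighv for the heavy chain, Igkv for the kappa and Iglv for the lambda light chain. Members were chosen by symbol and by their summed count: all genes whose symbol begins with Ighv, Igkv or Iglv and whose counts summed to 50 or more over the 18 libraries. This left 211 of the 348 annotated V genes, in a table of 49585 genes. Ighv contributed 106 of 185 genes, Igkv 102 of 160 and Iglv all 3. The members lie on mm10 chromosome 12 between 113578504 and 116000461 (Ighv), chromosome 6 between 67555497 and 70704177 (Igkv) and chromosome 16 between 19085017 and 19260859 (Iglv). GENCODE annotated 197 members as functional V genes and 14 as pseudogenes, whereas 19 functional V genes fell under the minimum and 66 V genes had no count in any library. Because the summed count chose the members, a gene could enter through 1 group alone, and counts over the members are given as description.

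The study asked which leukocyte genes accompany exit from inflamed tissue. All 18 libraries were bulk RNA-seq of pooled Kaede mice, which carry a protein that ultraviolet light turns from green to red. Red cells in a draining node are therefore taken to have left the illuminated tissue. The study also found slightly more red cells in the joint-draining node right after illumination than without it, which it called incidental. The labels give every sample the same account: OT-II T cells polarized in vitro to Th1 were transferred, ovalbumin in complete Freund's adjuvant was given the day after, and heat-aggregated ovalbumin or PBS was later injected into the footpad (joint) or the ear pinna (skin). The shared protocol sorted viable CD45+ Kaede red+ cells. Joint nonmigrated and skin nonmigrated cells came from the inflamed joint or ear. Joint migrated and skin migrated cells were labelled as having moved from there to the draining lymph node. The 2 steady-state groups were labelled as cells that reached the node from joint or ear at steady state, with 3 libraries in each of the 6 groups. The titles of the steady-state libraries read PBS with the letters KG (joint) and Naive (ear). Titles of the skin nonmigrated and skin migrated libraries carry the letters KR. The labels say neither what KG stands for nor whether the naive mice received T cells or antigen. If KG stands for Kaede green, the joint steady-state cells were not red cells that had left tissue. Whether the steady-state cells had left tissue was not tested. No source states that the 3 pools of a group were made on separate days, so p-values measure the spread between these pools.

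Each developing B cell joins 1 V segment to downstream D and J segments (heavy chain) or to a J segment (light chain), and only the joined V gene is transcribed strongly from its promoter. The V genes seen in bulk RNA therefore reflect the repertoire of the B lineage cells present, weighted by how much antibody RNA each cell holds. Plasma cells, which secrete antibody, hold far more of it than resting B cells. Reads were aligned to the reference genome, so reads of V genes that differ much from it may be missing. Such loss was not measured. A few V genes mark known subsets: Ighv11-2 joined with Igkv14-126, and Ighv12-3 joined with Igkv4-91, form the classical phosphatidylcholine-binding receptors of B-1 cells, an innate-like B lineage of the body cavities. Bulk counts do not pair heavy with light chains.

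The 6 V exons that the usage results turn on are given here, read from the mm10 genome on the coding strand and written 5' to 3', with capitals at the bases that differ from the nearest other V gene. Ighv1-26 and Igkv10-96 took the largest shares in the steady-state nodes, Ighv11-2 and Igkv14-126 had the smallest adjusted p in both tests against steady state, and Ighv1-82 and Igkv6-23 dominated the library skin migrated 3. For Ighv genes the last 300 bases of the V exon's coding part are given, and for Igkv genes all 298.
Ighv1-26 (mm10 chr12:114788372-114788671, minus strand; capitals, 8 of 300 bases that differ from Ighv1-18): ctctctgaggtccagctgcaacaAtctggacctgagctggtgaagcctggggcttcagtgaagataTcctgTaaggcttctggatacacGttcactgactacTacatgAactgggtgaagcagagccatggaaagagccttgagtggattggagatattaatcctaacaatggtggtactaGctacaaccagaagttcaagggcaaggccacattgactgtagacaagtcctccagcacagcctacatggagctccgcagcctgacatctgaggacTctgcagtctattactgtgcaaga
Ighv11-2 (mm10 chr12:114048241-114048540, minus strand; capitals, 4 of 300 bases that differ from Ighv11-1): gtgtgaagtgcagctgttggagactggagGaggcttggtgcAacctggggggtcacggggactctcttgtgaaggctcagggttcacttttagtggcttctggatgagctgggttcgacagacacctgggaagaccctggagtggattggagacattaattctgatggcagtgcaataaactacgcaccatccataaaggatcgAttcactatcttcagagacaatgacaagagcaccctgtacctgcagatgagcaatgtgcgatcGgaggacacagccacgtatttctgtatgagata
Ighv1-82 (mm10 chr12:115952538-115952837, minus strand; capitals, 12 of 300 bases that differ from Ighv1-80): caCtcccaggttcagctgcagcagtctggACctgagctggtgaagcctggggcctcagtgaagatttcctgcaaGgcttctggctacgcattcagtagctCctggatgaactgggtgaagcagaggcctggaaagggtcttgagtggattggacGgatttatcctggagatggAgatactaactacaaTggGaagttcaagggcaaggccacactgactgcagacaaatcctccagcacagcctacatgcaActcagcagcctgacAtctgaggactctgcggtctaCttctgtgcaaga
Igkv10-96 (mm10 chr6:68631963-68632260, minus strand; capitals, 19 of 298 bases that differ from Igkv10-95): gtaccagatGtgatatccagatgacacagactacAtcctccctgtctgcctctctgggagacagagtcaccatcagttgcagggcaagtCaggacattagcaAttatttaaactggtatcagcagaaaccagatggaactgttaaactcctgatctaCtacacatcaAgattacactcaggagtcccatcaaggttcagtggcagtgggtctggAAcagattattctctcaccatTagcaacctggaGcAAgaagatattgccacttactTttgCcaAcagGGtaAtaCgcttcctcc
Igkv14-126 (mm10 chr6:67896345-67896642, plus strand; capitals, 27 of 298 bases that differ from Igkv14-111): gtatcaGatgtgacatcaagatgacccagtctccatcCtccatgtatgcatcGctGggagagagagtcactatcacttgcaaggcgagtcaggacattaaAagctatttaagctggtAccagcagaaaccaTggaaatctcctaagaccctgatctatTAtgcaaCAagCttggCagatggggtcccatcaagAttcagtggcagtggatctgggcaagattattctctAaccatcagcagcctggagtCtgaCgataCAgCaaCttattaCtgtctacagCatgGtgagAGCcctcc
Igkv6-23 (mm10 chr6:70260409-70260706, minus strand; capitals, 19 of 298 bases that differ from Igkv6-25): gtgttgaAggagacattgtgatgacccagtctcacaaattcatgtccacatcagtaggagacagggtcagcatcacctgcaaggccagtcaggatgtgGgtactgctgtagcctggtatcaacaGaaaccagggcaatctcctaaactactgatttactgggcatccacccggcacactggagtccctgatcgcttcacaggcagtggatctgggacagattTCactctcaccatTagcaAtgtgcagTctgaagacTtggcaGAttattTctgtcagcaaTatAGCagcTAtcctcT

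Such similarity bears on every value, because the counting dropped read pairs that aligned to more than 1 place or overlapped more than 1 gene. Over the libraries, 9.24 to 12.7% of all read pairs listed were not unique and 1.84 to 2.37% were ambiguous. Across the members' transcripts (297 to 501 bases long), a median of 73.3% of the 100-base windows differed by more than 2 bases from every other V gene. The share was under 50% for 59 members, 0 for 4 and 100% for 56. Ighv1-82 was distinct over 91.3% of its windows and Igkv14-126 over 100.0%, whereas Ighv1-26 and Igkv10-96 were distinct over 50.8%, Igkv6-23 over 36.3% and Ighv11-2 over 29.8%. Igkv4-59 was distinct over 1.49%, so its counts are uncertain. The near copy of Ighv11-2, Ighv11-1, had 0 to 9 counts in each library.

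Library totals ran from 19239531 to 43814403 counts, with the skin nonmigrated and skin migrated libraries at the low end. Those skin libraries had at most 22528895 counts and the rest at least 28577566. Their column names also end in S and a number, and those of the rest in R and a number. In the inflamed groups this split coincides with site and cannot be told apart from it. Skin migrated cells are compared with steady state across it. Members took 0.000225 to 0.425% of all counts. Some libraries stand apart. Skin nonmigrated cells gave 45, 153 and 567 V counts in all, against 16309 to 101517 in the other 15 libraries, so usage in skin nonmigrated cells rests on few reads. In skin migrated 3, Ighv1-82 alone took 36.2% of the Ighv counts, so values that rest on that library are given with and without it. At the lower edge of the rule, Ighv8-7, Ighv1-23 and Igkv4-56 entered with 52, 57 and 60 counts, whereas Igkv12-40, Igkv14-126-1 and Ighv11-1 stayed out with 45, 44 and 40.

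V transcripts were most abundant on average in skin migrated cells, which overlapped joint migrated cells, and nearly absent from skin nonmigrated cells. Levels are given as CPM, counts scaled to a common library size and normalized by the trimmed mean of M-values (TMM). The summed V level was 2860, 1892 and 4214 CPM in skin migrated 1 to 3 (2989 ± 1170, SD, n = 3), or 2376 on average without skin migrated 3. Joint migrated cells held 1195, 1491 and 2176 CPM (1621 ± 503, n = 3), above each of the joint steady-state values of 1084, 1008 and 1064 (1052 ± 39.4, n = 3). The skin steady-state node held 893.6, 771 and 648.1 CPM (770.9 ± 123, n = 3), below every skin migrated library. Joint nonmigrated cells held 446.1, 918.1 and 501.3 CPM (621.8 ± 258, n = 3), and skin nonmigrated cells 2.698, 8.941 and 29.47 (13.7 ± 14.0, n = 3). Joint nonmigrated cells thus lay below all joint migrated libraries, and the skin nonmigrated level lay below every other library. Kappa genes held the larger part in each group mean, with mean Igkv levels of 358.6, 885.2 and 663.1 CPM in joint nonmigrated, migrated and steady-state cells against 231.7, 642.6 and 331.3 for Ighv. These are summed levels over genes, given with no test. Fewer B lineage cells and less V RNA per cell cannot be told apart in these bulk samples.

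**Figure D1:**
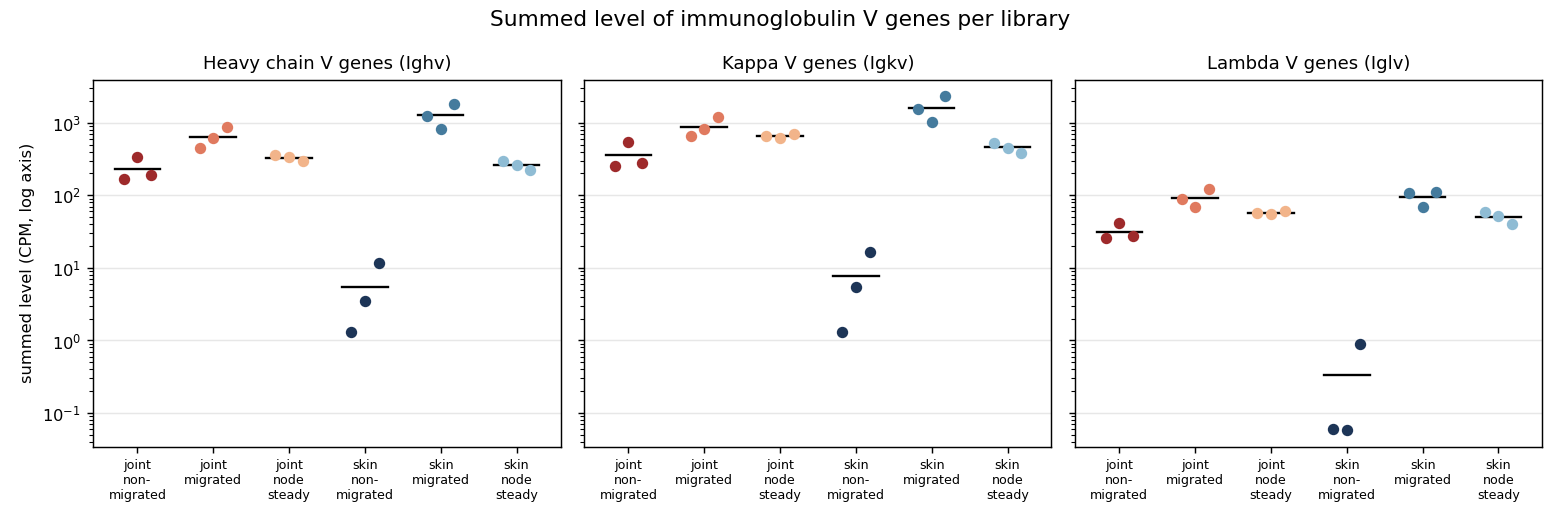
Summed level of the V members in CPM on a log axis, in separate panels for Ighv, Igkv and Iglv, with 1 point for each of the 18 libraries and a bar at the mean of each group of 3. The skin nonmigrated libraries lie far below the rest, and the skin migrated group has the highest mean in each panel.

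The V level did not follow the B cell genes when migrated cells were set against steady state. Set against Cd79a, which encodes a signalling chain of the B cell receptor, the summed V level per unit of Cd79a was 0.767 to 0.995 in the 6 steady-state libraries. The ratio was 4.41 to 9.28 in joint migrated, 57.4 to 71.1 in skin migrated and 7.01 to 28.4 in joint nonmigrated cells. In skin nonmigrated cells, where both levels were low, it was 5.0 to 16.2. Cd79a itself was 1090, 1100 and 1390 CPM in the joint steady-state node, 271, 200 and 234 in joint migrated and 47.3, 33.0 and 59.3 in skin migrated cells. The summed level of 8 B cell markers was 5760 to 5930 CPM in the joint and 3860 to 5150 in the skin steady-state node, 993 to 1320 in joint migrated, 173 to 294 in skin migrated, 126 to 300 in joint nonmigrated and 11 to 27 in skin nonmigrated cells, where only 3 of the 8 exceeded 1 CPM. Jchain, the joining chain of secreted antibody, was 2.62 to 9.41 CPM over the 6 steady-state libraries, 171, 168 and 325 in joint migrated and 375, 251 and 459 in skin migrated cells. Jchain was 100, 187 and 108 CPM in joint nonmigrated and 0.24, 2.69 and 4.94 in skin nonmigrated cells. The order of the groups by Jchain was thus not their order by Cd79a. Other plasma cell genes did not share the order of Jchain. Mzb1 averaged 33.9 CPM in joint steady-state and 34.5 in joint migrated cells, and 22.3 and 17.7 in the same skin groups. Sdc1 was highest in nonmigrated cells, with means of 133 (joint) and 195 (skin).

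Diversity was highest and most uniform at steady state. It is given as the effective number of genes, the number of equally used genes that would give the same chance of drawing 1 gene in both of 2 reads. It describes reads, and the number of B lineage cells behind them was not measured. The effective number of Ighv genes was 49.5, 49.5 and 48.7 in the joint and 47.4, 50.4 and 49.5 in the skin steady-state node (49.23 ± 0.462 and 49.1 ± 1.54, n = 3 each). Joint nonmigrated cells gave 48.9, 41.5 and 50.4, and joint migrated cells 41.2, 37.7 and 45.6, so that the joint migrated libraries all lay below steady state while joint nonmigrated cells overlapped it. Skin migrated cells gave 33.6, 30.2 and 6.9 (23.57 ± 14.5, n = 3), or 31.87 on average without skin migrated 3. The effective number of Igkv genes was 43.03 ± 0.503 in the joint and 42.83 ± 0.737 in the skin steady-state node. It was 31.7, 38.9 and 34.8 in joint nonmigrated, 31.3, 33.9 and 34.0 in joint migrated and 21.4, 25.1 and 13.8 in skin migrated cells, all below the steady-state libraries. Skin nonmigrated cells gave 25.7, 5.2 and 12 for Ighv from 22, 59 and 228 reads, which are too few to place them.

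**Figure D2:**
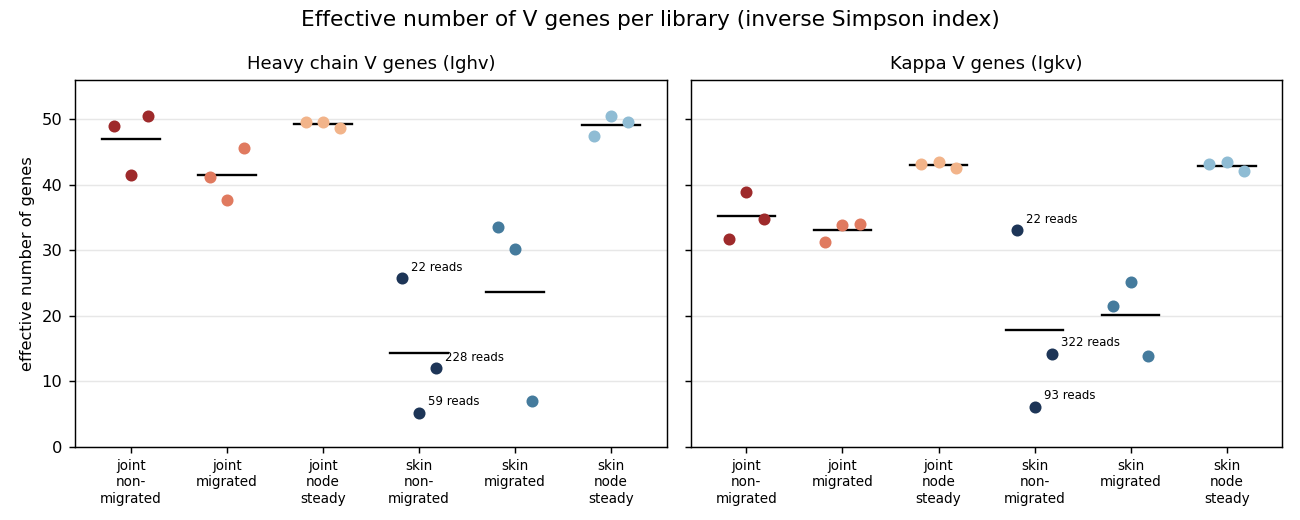
Effective number of genes used in each of the 18 libraries, for Ighv and Igkv in separate panels, with 1 point per library and a bar at each group mean (n = 3). The steady-state libraries lie close together at 47.4 to 50.4 for Ighv, and skin migrated 3 is the lowest migrated library at 6.9.

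Most V genes were still detected. Of the 106 Ighv members, 105 to 106 had a count in the joint and 104 to 105 in the skin steady-state node, 103 to 106 in joint migrated, 92 to 98 in skin migrated and 91 to 102 in joint nonmigrated cells. In skin nonmigrated cells the number was 13 to 29. At an equal depth of 6108 Ighv reads, which the 15 libraries outside skin nonmigrated reach, the expected number of genes seen was 103.1 to 104.4 at steady state, 97.1 to 99.7 in joint migrated, 88.9 to 101.8 in joint nonmigrated and 87.3 to 90.7 in skin migrated cells. Skin migrated cells thus gave reads of fewer Ighv genes than the steady-state nodes also at equal depth. Equal depth does not make the number of B lineage cells behind the reads equal, and the part of that number was not tested. At 22 reads, the smallest Ighv total, skin nonmigrated cells gave 7.7 to 16 genes against 12.6 to 16.8 in skin migrated and 17.3 to 18.2 in all other libraries, ranges that overlap between the skin groups.

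For Ighv and for Igkv, the leading gene was the same in all 6 steady-state libraries. In the other groups, the Ighv or Igkv gene with the most reads varied between pools. Ighv1-26 led Ighv usage at steady state with 5.37 to 6.03% of reads, and Igkv10-96 led Igkv usage with 5.45 to 5.72%. In joint nonmigrated cells Ighv1-26 (4.76%), Ighv1-9 (6.47%) and Ighv1-26 (4.54%) led in replicates 1 to 3, and in joint migrated cells Ighv1-26 (6.05%), Ighv3-6 (6.91%) and Ighv1-26 (5.39%). In skin migrated cells, a different gene had the most reads in each library. Ighv6-3 led skin migrated 1 with 8.74% (95% Wilson interval 8.41 to 9.09), Ighv11-2 led skin migrated 2 with 8.0% (7.59 to 8.42) and Ighv1-82 led skin migrated 3 with 36.2% (35.7 to 36.7), or 14692 of 40578 reads. Outside skin nonmigrated cells the leading share carried a half-width of at most 0.548 percentage points for Ighv and 0.565 for Igkv, from counting error alone. In skin nonmigrated cells Ighv1-82, Ighv9-3 and Ighv1-81 led with 4 of 22, 20 of 59 and 40 of 228 reads. Dividing counts by transcript length kept the Ighv leader in 17 of 18 libraries. The exception was skin migrated 2, where Ighv1-82, with 7.71% of reads (7.31 to 8.13), took the lead from Ighv11-2 within their intervals, so that per length Ighv1-82 led both skin migrated 2 and 3.

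Kappa leaders by reads also varied between pools. Igkv1-117 (7.12%), Igkv15-103 (5.95%) and Igkv1-110 (8.51%) led in joint nonmigrated cells, and Igkv1-117 (6.83%), Igkv10-96 (8.61%) and Igkv1-110 (6.40%) in joint migrated cells. Several of these leads were narrow: Igkv1-117 and Igkv1-110 had 660 and 659 reads in joint nonmigrated 1, and the 3 most used genes of joint migrated 3 took 6.40, 6.30 and 6.26%. Per transcript length the leader stayed the same in 15 of 18 libraries and became Igkv1-110 in joint nonmigrated 1 and Igkv10-96 in joint migrated 1 and 3, so that per length Igkv10-96 led all 3 joint migrated libraries, as at steady state. In skin migrated cells Igkv5-39 held 14.5%, Igkv14-126 10.8% and Igkv6-23 20.7% of replicates 1, 2 and 3. In skin migrated 3 the second gene was Igkv6-25, the nearest copy of Igkv6-23, with 11.9%, so the division of reads between these near copies is uncertain. Over all libraries 8 Ighv and 7 Igkv genes led at least 1 library.

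**Figure D3:**
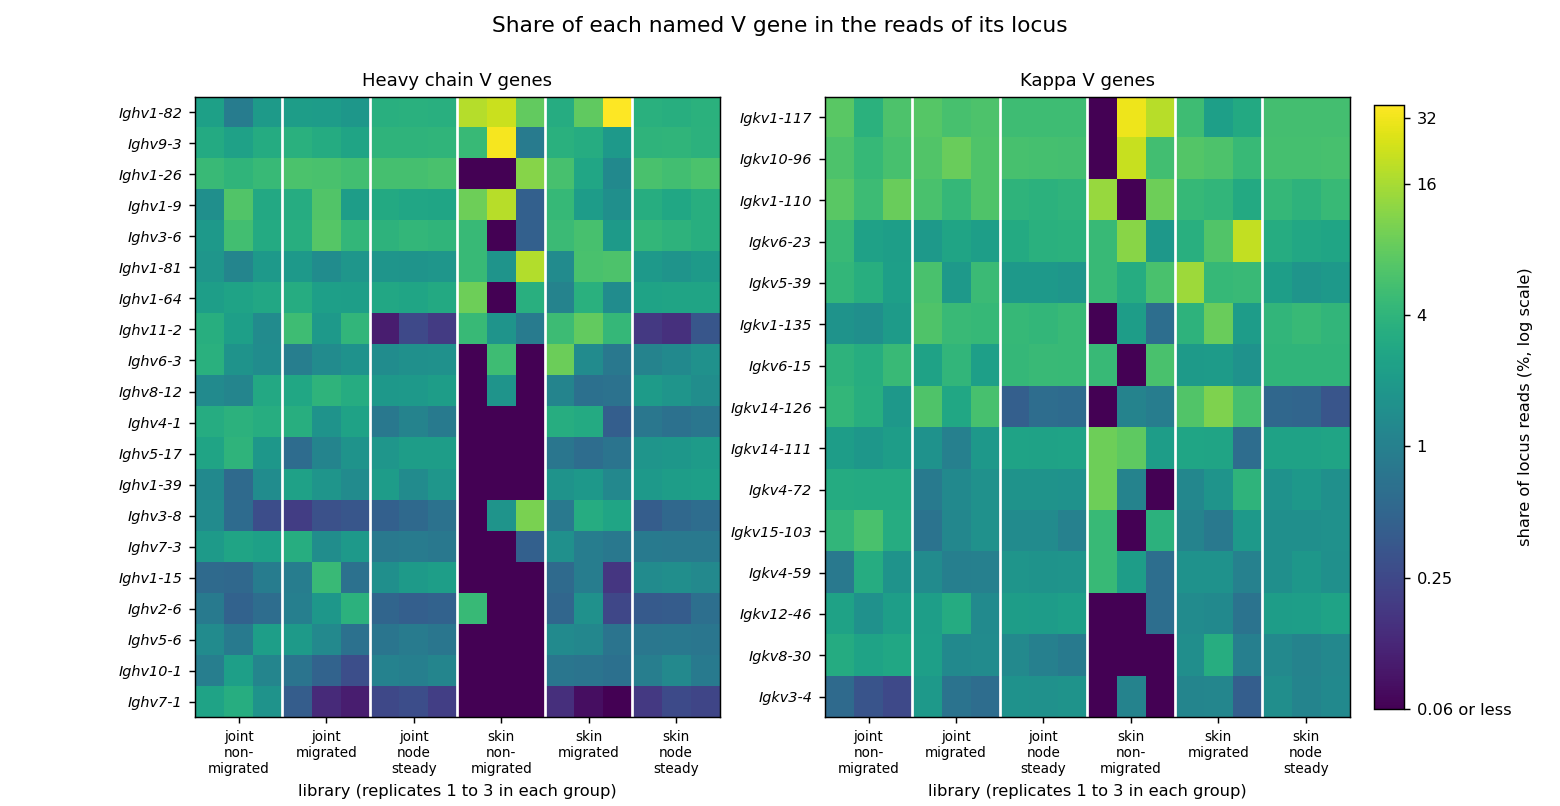
Share of the Ighv reads (left) and Igkv reads (right) taken by the named members with a mean share of 0.5% or more, in percent on a log colour scale, with a brighter cell for a larger share and 1 column for each of the 18 libraries. Columns of the steady-state nodes look alike, whereas Ighv1-82 reaches 36.2% and Igkv6-23 20.7% in skin migrated 3.

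Usage of any pair of libraries was compared by the overlap, the sum over genes of the smaller of both shares. The 15 pairs of steady-state libraries overlapped by 91.9 to 95.4% for Ighv and 92.0 to 96.4% for Igkv, across both nodes alike. Pools of the same inflamed group overlapped less: 72.8 to 78.2% for Ighv in joint migrated, 69.4 to 77.0% in joint nonmigrated and 48.5 to 64.6% in skin migrated cells. The overlap of joint migrated with joint steady-state libraries was 74.7 to 78.2%, in the range of joint migrated pools with each other. The overlap of joint nonmigrated with joint migrated libraries was 67.3 to 77.5%, a range that overlapped the ranges within each of the groups. Skin migrated 3 overlapped the 6 steady-state libraries by 48.9 to 49.6% for Ighv, against 65.5 to 68.7% for skin migrated 1 and 2. Pairs of skin nonmigrated libraries overlapped by 18.7 to 36.9%, with as few as 22 reads behind a share.

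**Figure D4:**
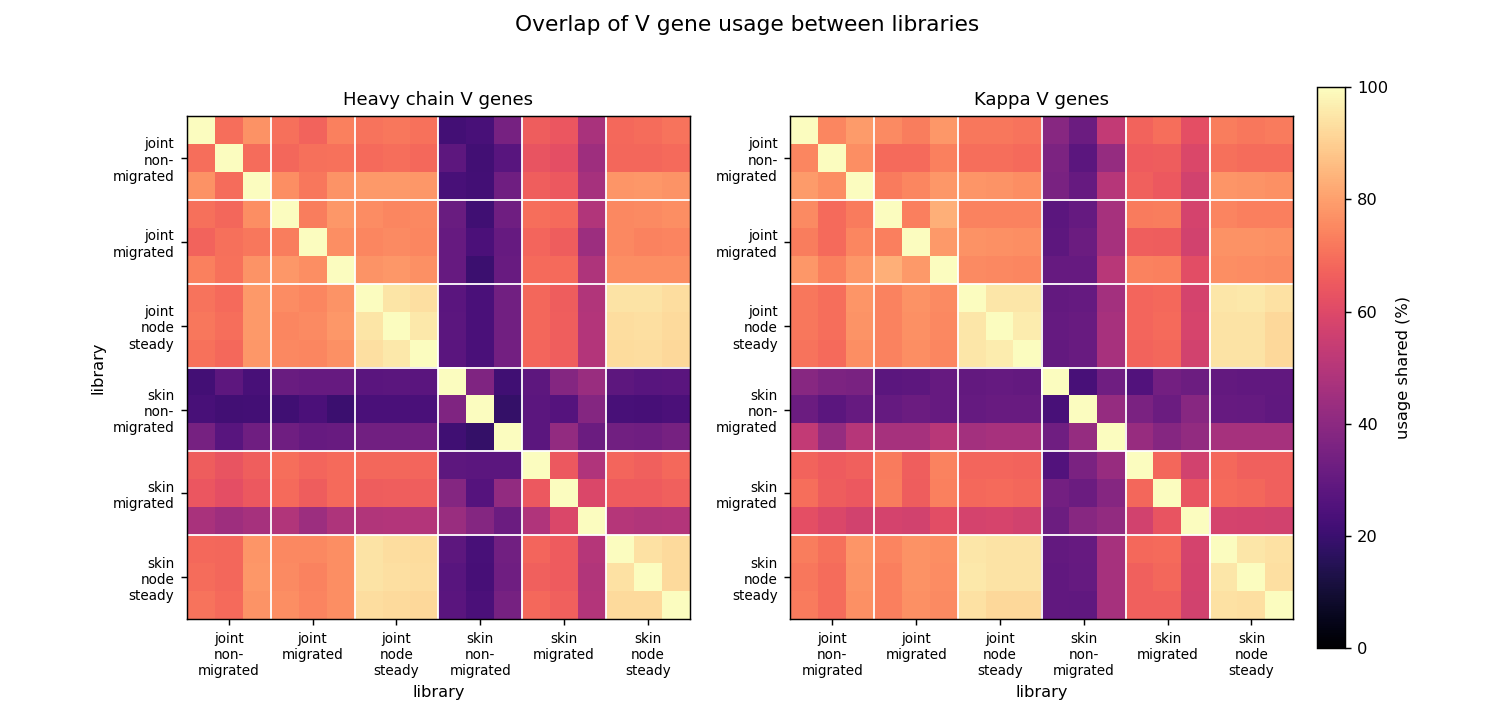
Overlap of Ighv usage (left) and Igkv usage (right) between every pair of the 18 libraries, in percent of reads, with libraries ordered by group and a brighter cell for a larger overlap. The cells that pair steady-state libraries, within and between both nodes, are bright at 91.9 to 96.4%, and skin nonmigrated libraries overlap least.

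Ighv1, the largest family with 53 members, took 57.0 ± 1.12% of Ighv reads in the joint and 58.3 ± 0.422% in the skin steady-state node. Its share was 48.7 ± 1.9% in joint nonmigrated, 53.9 ± 1.79% in joint migrated and 45.9, 53.3 and 67.8% in skin migrated 1 to 3. The share in joint nonmigrated cells lay below every joint migrated and steady-state library. The 3 Ighv7 members took 4.72, 6.22 and 4.06% in joint nonmigrated, 3.87, 1.58 and 2.23% in joint migrated and 1.05 to 1.23% in the steady-state libraries. The Igkv4 family (30 members) took 18.9, 23.7 and 18.4% of Igkv reads in joint nonmigrated, 15.4, 18.5 and 17.5% in joint migrated and 14.2 to 15.1% in the joint steady-state node. Usage was also summed by position along the locus. The 53 Ighv members nearest to the Ighj1 segment, within 1182.4 kb, took 43.1 to 44.4% in the 6 steady-state libraries, 46.8 to 49.0% in joint migrated, 49.3 to 57.6% in joint nonmigrated and 33.6 to 57.0% in skin migrated cells.

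Lambda usage shifted between Iglv1 and Iglv3, the genes known as V lambda 1 and V lambda x. Iglv1 took 44.2 to 49.9% of Iglv reads in the joint and 40.9 to 46.2% in the skin steady-state node, against 64.3 to 75.3% in joint migrated, 63.5 to 83.9% in skin migrated and 76.8 to 79.6% in joint nonmigrated cells. Iglv3 took 37.0 to 49.5% at steady state and 3.66 to 14.3% in those 3 inflamed groups, with no overlap. The level of Iglv3 was 25.1, 23.5 and 22.4 CPM in the joint steady-state node and 7.96, 6.82 and 8.59 in joint migrated cells, and 26.0, 24.5 and 19.9 against 6.61, 9.84 and 6.56 in the skin groups. Iglv3 thus ran lower in every migrated library than in any steady-state library, while Iglv1 and Iglv2 ran higher. Iglv3 is distinct from the other V genes over 100.0% of its windows, Iglv1 over 44.9% and Iglv2 over 39.7%. Lambda made up 7.88 to 8.15% of light-chain V reads in the joint and 9.45 to 10.4% in the skin steady-state node, 7.9 to 11.7% in joint migrated and 4.63 to 6.58% in skin migrated cells.

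Joint migrated cells were first compared with joint nonmigrated cells, the contrast of cells labelled as having left the joint with those that stayed. Igkv1-135 was 4.21, 8.17 and 5.77 CPM in joint nonmigrated and 41.3, 38.0 and 52.8 in joint migrated cells, and Ighv1-39 rose from 2.13, 1.93 and 2.68 to 10.7, 10.6 and 11.8. Neither gene's groups overlapped, and both rose by the test described next (Igkv1-135 log2 fold change 2.87, SE 0.293, adjusted p = 1.03e-05; Ighv1-39 2.29, SE 0.208, adjusted p = 1.41e-05). Ighv7-1 went the other way, with 4.21, 11.1 and 3.19 CPM in joint nonmigrated and 1.85, 0.817 and 0.9 in joint migrated cells, no overlap, and fell by 2.37 on the log2 scale (SE 0.579, adjusted p = 0.00625). Tests were edgeR's quasi-likelihood F test over all genes with Benjamini-Hochberg adjustment, with calls made where the adjusted p was under 0.05 and the log2 fold change beyond 1 in either direction. Of 178 members tested (33 were too low), 63 were called higher and 1, Ighv7-1, lower in joint migrated cells, that is 35.4 and 0.562% of them, where 16.0 and 18.4% of all 16777 genes were called higher and lower. The calls comprised 33 of 88 tested Ighv members higher and 1 lower, 27 of 87 Igkv and all 3 Iglv higher, and the median log2 fold change of the members was 1.38 against 0.018 over all genes. Ighv11-2 (2.14, adjusted p = 0.000876) and Igkv14-126 (1.96, adjusted p = 0.00264) were among those that rose. All 8 B cell markers rose in the same comparison, and their part in the V result was not tested. The count of 64 went down to 41 without joint nonmigrated 1 and up to 102 in the fit of all 18 libraries, and Iglv3 (1.63, adjusted p = 0.0252) lost its call without joint nonmigrated 1 or 3 or joint migrated 3 (adjusted p = 0.0785, 0.0736 and 0.0562).

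Within the joint repertoire, the genes that shifted in share were not always those that shifted in level. Igkv1-135 went from 1.74 ± 0.275% of Igkv reads in joint nonmigrated to 5.14 ± 0.991% in joint migrated cells and Ighv7-1 from 2.50 ± 0.826% to 0.216 ± 0.17% of Ighv reads (n = 3 each). Igkv15-103 went from 4.46 ± 1.37% to 1.16 ± 0.44% and Igkv4-72 from 3.09 ± 0.0421% to 1.24 ± 0.343%, although neither differed in level by the test (log2 fold change -0.64, adjusted p = 0.476, and 0.07, adjusted p = 0.933). Ighv8-12 went from 1.8 ± 0.985% to 3.31 ± 0.561%. Ighv2-6 took 0.835, 0.465 and 0.611% in joint nonmigrated and 0.979, 1.82 and 3.79% in joint migrated cells, the highest value in joint migrated 3. Ighv2-6 and Ighv8-12 also rose in level (log2 fold changes 3.56 and 2.47, adjusted p = 0.000858 and 0.000632).

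Skin migrated cells held far more V reads than skin nonmigrated cells. Igkv1-135 was 59.0, 86.0 and 49.1 CPM in skin migrated and 0, 0.117 and 0.104 in skin nonmigrated cells, where it had 4 reads in all (log2 fold change 9.66, SE 0.496, adjusted p = 8.34e-08). Ighv1-39 had no read in skin nonmigrated cells and 20.5, 15.3 and 22.1 CPM in skin migrated cells, at least 113-fold higher against the floor of 3 counts per library. Igkv8-30 was at least 153-fold and Iglv2 at least 83.7-fold higher on the same basis. Igkv12-46 had 2 reads against 1081, a ratio of 447 per normalized count (95% interval 124 to 3700, counting error only). Of 178 members tested, 165 (92.7%) were called higher and none lower, against 15.7 and 19.7% of all genes, with 82 of 88 Ighv, 80 of 87 Igkv and all 3 Iglv members called higher. Skin nonmigrated cells had no read of 99 tested members and 1 to 3 reads of 36, and with the former at their lower bound the median log2 fold change was 5.88. All 8 B cell markers rose in the same comparison, and their part in the V result was not tested.

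Nonmigrated cells of the joint held many more V reads than those of the skin. Igkv8-30 was 8.01, 13.8 and 7.88 CPM in joint nonmigrated cells and had no read in skin nonmigrated cells, at least 58.0-fold higher. Ighv1-39 was at least 13.2-fold higher and Igkv12-46 had a ratio of 184 (95% interval 50.6 to 1520). Of 178 members, 134 (75.3%) were called higher in the joint and none lower, against 5.45 and 8.86% of all genes. The calls held 64 Ighv, 67 Igkv and all 3 Iglv members. All 8 B cell markers and all 5 precursor markers were also called higher in joint nonmigrated cells.

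Between the migrated groups, edgeR's test called 2 members different between joint and skin. Ighv1-82 was 9.79, 12.8 and 15.8 CPM in joint migrated and 39.9, 62.7 and 651 in skin migrated cells, and Ighv3-8 was 0.883, 1.84 and 3.02 against 10.1, 26.6 and 47.5. Both were lower in every joint library and were called lower in joint migrated cells (log2 fold change -4.29, SE 0.883, adjusted p = 0.0347, and -3.87, SE 0.848, adjusted p = 0.0447, edgeR). These 2 are 1.12% of 178 tested members, against 0.56% of all genes called higher and 0.578% lower, so the share is near the background. This count depends on the settings, with 5 under the replicate block, 9 with no filter on low counts, 12 by DESeq2's Wald test and 13 in the fit of all 18 libraries. At an unadjusted p under 0.05 there were 39 members, and the median log2 fold change was -0.53 against -0.002 over all genes. The shares of all genes under these settings and at an unadjusted p are not given. These counts therefore cannot be set against a background. Without skin migrated 3 the change of Ighv1-82 was -1.97 (adjusted p = 0.0344), and without any 1 joint migrated library its call was lost (adjusted p = 0.112 to 0.142). The call of Ighv3-8 was lost without any 1 of the 6 libraries (adjusted p = 0.0677 to 0.177). Igkv6-23, with 12.7, 20.9 and 26.3 against 53.6, 65.3 and 477 CPM, missed the threshold (-3.31, adjusted p = 0.0514), and its change was -1.54 (adjusted p = 0.143) without skin migrated 3.

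Against steady state, the pair of genes known from B-1 cells had the smallest adjusted p of all members in both nodes. Ighv11-2 was 0.378, 0.859 and 0.555 CPM in the joint steady-state node and 22.8, 11.6 and 36.1 in joint migrated cells, and 0.538, 0.394 and 0.764 against 61.3, 65.0 and 78.9 in the skin groups. The groups did not overlap, and Ighv11-2 rose by 5.34 (SE 0.409, adjusted p = 2.35e-07) in the joint and 6.97 (SE 0.431, adjusted p = 1.79e-08) in the skin comparison on the log2 scale. Igkv14-126 was 2.87, 3.75 and 4.08 CPM in the joint steady-state node and 41.9, 22.8 and 68.2 in joint migrated cells, and 2.78, 2.27 and 1.28 against 99.3, 110 and 128 in the skin groups. It also rose without overlap, by 3.66 (SE 0.346, adjusted p = 1.59e-06) and 5.74 (SE 0.383, adjusted p = 3.48e-08). In usage, Ighv11-2 took 0.105 to 0.344% of Ighv reads at steady state, 5.09, 1.91 and 4.14% in joint migrated, 4.99, 8.0 and 4.39% in skin migrated and 3.42, 2.28 and 1.36% in joint nonmigrated cells. Joint nonmigrated cells thus also held a larger share of Ighv11-2 than any steady-state library.

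Ighv12-3 and Igkv4-91, named here for their known pairing after their values were seen, also rose in level. Ighv12-3 was 0.867, 0.908 and 0.444 CPM in the joint steady-state node and 7.0, 5.3 and 11.6 in joint migrated cells (log2 fold change 3.46, SE 0.503, adjusted p = 7.6e-05), and its skin change was 2.83 (SE 0.519, adjusted p = 0.000345). Igkv4-91 was 8.03, 5.5 and 6.68 CPM in the joint steady-state node and 17.0, 18.3 and 28.3 in joint migrated cells, with no overlap, and rose by 1.68 (SE 0.399, adjusted p = 0.00335) and, in the skin comparison, 1.82 (SE 0.411, adjusted p = 0.00167). Ighv12-3 took 1.56, 0.873 and 1.33% of Ighv reads in joint migrated cells against 0.15 to 0.269% at joint steady state. In skin migrated cells it took 0.102, 0.547 and 0.375%, overlapping 0.185 to 0.262% at skin steady state. Igkv4-91 took 147 of 32747, 230 of 20233 and 682 of 51999 Igkv reads in skin migrated 1 to 3. At skin steady state it took 233 of 23787, 179 of 19663 and 155 of 12643, shares that overlap. Whether these heavy and light chains came from the same cells cannot be told from bulk counts.

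**Figure D5:**
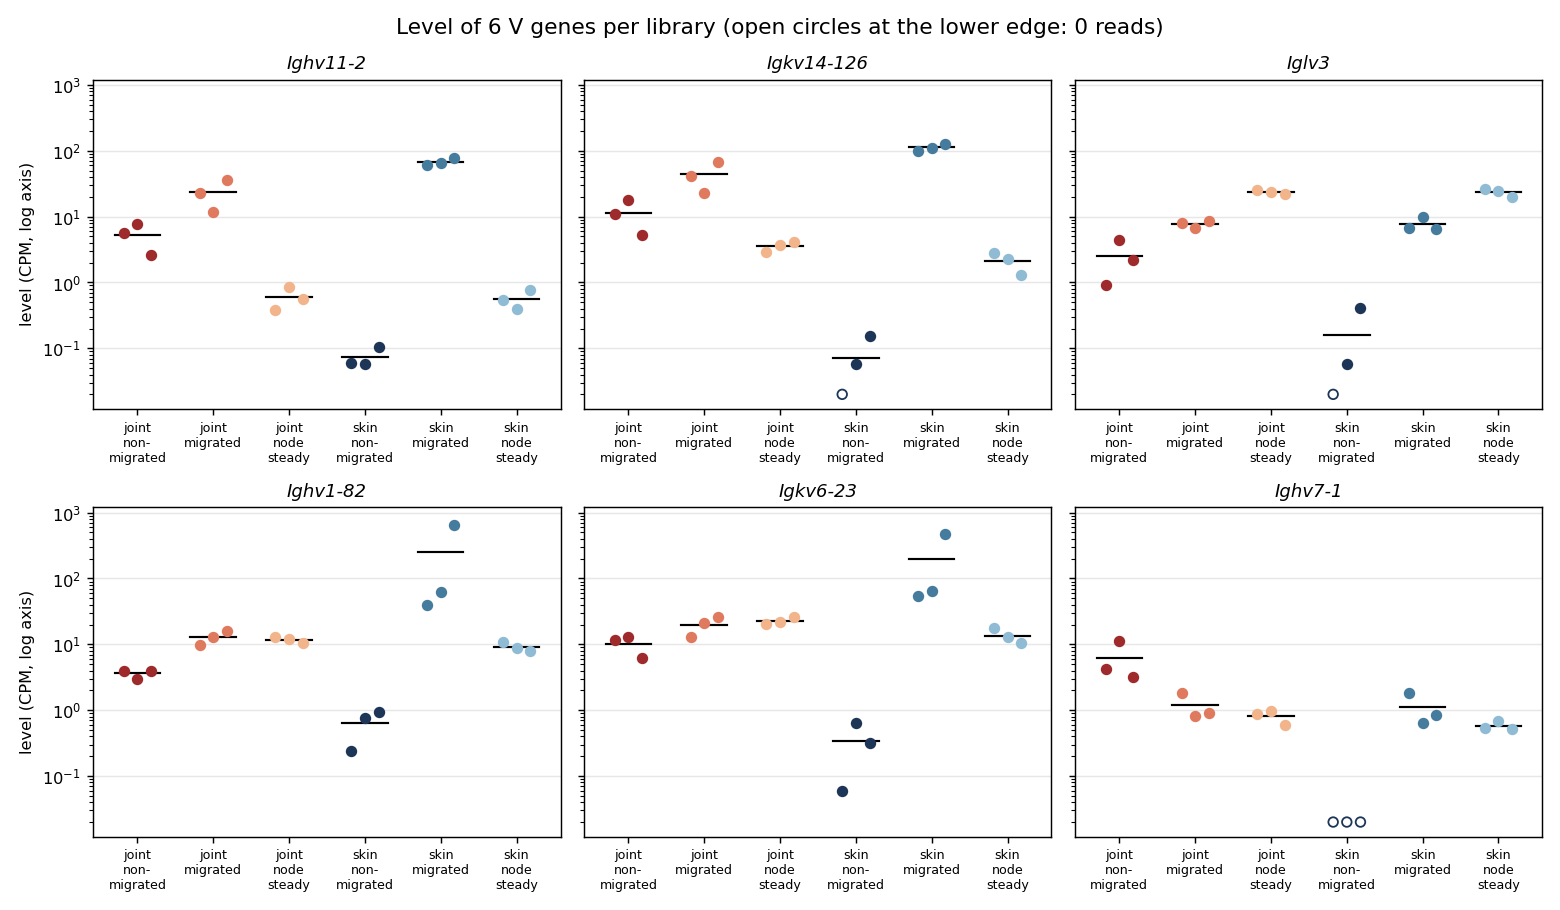
Level of 6 V genes in each of the 18 libraries, in CPM on a log axis, with 1 point per library, a bar at each group mean (n = 3) and open circles at the lower edge for 0 reads. Ighv11-2 and Igkv14-126 are higher in every migrated library than in any steady-state library, Iglv3 is lower, and Ighv1-82 and Igkv6-23 peak in skin migrated 3 at 651 and 477 CPM.

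Over the joint-draining node as a whole, 201 members were tested and 10 were too low. In joint migrated cells 32 (15.9%) were called higher and 13 (6.47%) lower than at steady state, against 16.9 and 7.31% of all 17107 genes, shares near the background. The calls were 22 higher and 7 lower of 100 Ighv, 8 and 5 of 98 Igkv, and 2 and 1 of 3 Iglv members. After the pair above, Ighv7-3 had the smallest adjusted p among the higher members, with 2.98, 2.97 and 2.37 against 15.1, 8.55 and 17.1 CPM (2.32, SE 0.315, adjusted p = 4.15e-05). Iglv3 (-1.57, SE 0.161, adjusted p = 3.29e-06), Ighv4-2 (-1.78, SE 0.457, adjusted p = 0.00555) and Igkv4-73 (-1.61, SE 0.454, adjusted p = 0.00974) fell. Ighv1-26, the steady-state leader, had a change of 1.00 (adjusted p = 0.0313) that lost its call without any joint steady-state library or joint migrated 2 or 3 (adjusted p up to 0.106). The count of 45 was 26 without joint steady-state replicate 2.

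In the skin-draining node the changes were wider, but they run across the split of libraries described above, which cannot be told apart from inflammation there. Of 201 members, 98 (48.8%) were called higher and 19 (9.45%) lower in skin migrated cells than at steady state, against 21.5 and 15.0% of all genes, with a median log2 fold change of 1.22. The higher calls were 55 Ighv, 41 Igkv and 2 Iglv members. Ighv5-6 was 2.38, 2.13 and 1.71 CPM at steady state and 16.1, 9.84 and 13.1 in skin migrated cells (2.67, SE 0.23, adjusted p = 3.56e-07). Ighv1-82 was 10.7, 8.87 and 8.06 CPM at steady state, below all skin migrated values given above, and rose by 4.80 (SE 0.833, adjusted p = 0.000219), or by 2.47 (adjusted p = 1.74e-06) without skin migrated 3. Igkv6-23 rose by 3.90 (SE 0.687, adjusted p = 0.000249), or by 2.12 (adjusted p = 2.89e-05) without that library. Iglv3 fell by 1.59 (SE 0.165, adjusted p = 2.2e-06) and Ighv5-2 by 3.26 (SE 0.563, adjusted p = 0.00021). Ighv3-2 had 2 reads in skin migrated cells and was lower by a ratio of 11.7 (95% interval 3.05 to 99.6), and Igkv4-81, with no read there and 0.471, 0.671 and 0.458 CPM at steady state, was at least 3.79-fold lower. While these V genes rose, all 8 B cell markers were called lower in both migrated groups than at steady state.

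The 2 steady-state nodes, titled PBS (joint) and Naive (ear), did not differ in any member by edgeR's test. None of 201 members was called, against 3.23 and 0.655% of all genes called higher and lower in the joint-draining node. At an unadjusted p under 0.05 there were 11 members, all Igkv, and DESeq2's Wald test called 0 and the fit without a filter on low counts 1. The share of all genes at that unadjusted p is not given. The joint value was higher for 183 of 201 members, with a median log2 fold change of 0.40. Neutrophil markers summed to 382 to 739 CPM in the joint and 10.4 to 17.1 in the skin steady-state node. Of 12 constant-region genes, 2 were called higher in the joint node and none lower. Of 6 tested genes of V(D)J recombination and the surrogate light chain, 3 were called higher there and none lower. None of the 8 B cell markers was called. The part of these differences in the shift of the V members was not tested.

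The difference between sites was then tested itself, although site and the split of libraries described above cannot be told apart in the inflamed groups. In the steady-state groups, site coincides with the titles PBS (joint) and Naive (ear). For the change from steady state, site cannot be told apart from that difference either. The change from nonmigrated to migrated cells was more positive in the skin for 109 of 178 members and in the joint for none, against 2.17 and 3.96% of all genes. Skin nonmigrated cells had few or no reads of these genes, so the fitted sizes depend on the prior count: Igkv1-135 rose in both sites and differed by -6.80 on the log2 scale, joint minus skin (adjusted p = 0.000378). The change from steady state to migrated cells was more positive in the skin for 25 of 201 members and in the joint for 2, against 3.78 and 2.33% of all genes. Igkv14-126 rose more in the skin (-2.08, adjusted p = 0.015), whereas for Ighv11-2 the difference of -1.64 missed the threshold (adjusted p = 0.101). Igkv2-137 was 4.29, 7.89 and 5.62 CPM in joint migrated and 1.33, 1.62 and 1.53 in joint steady-state cells, but 0.884, 1.25 and 2.35 against 1.3, 1.18 and 1.16 in the skin groups, and rose more in the joint (1.69, adjusted p = 0.0317). For Iglv3 the site difference was 0.02 (SE 0.227, adjusted p = 0.974). The count of 27 fell to 8 without skin steady-state replicate 2, 9 without replicate 3 and 15 without replicate 1, to 12, 14 and 12 without joint steady-state replicates 1 to 3 and to 14 without joint migrated 2, and went up to 46 without joint migrated 3.

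The genes that act with the V segments are described by counts from a list chosen with earlier results known. Of the 12 constant-region genes, 6 rose and 1 fell in joint migrated against joint nonmigrated cells, and all 12 rose in the skin. Igha, the constant region of the mucosal antibody IgA, was the gene that fell, with 413, 688 and 429 CPM in joint nonmigrated and 47.9, 42 and 183 in joint migrated cells (-2.48, SE 0.797, adjusted p = 0.0196), although most V members rose or were not called there. Against steady state, Igha rose by 4.76 (adjusted p = 2.42e-05) in the joint and 5.50 (adjusted p = 4.39e-06) in the skin comparison, and Ighg2c, of the IgG2c class, by 3.84 (adjusted p = 2e-05) and 7.54 (adjusted p = 1.12e-07). Ighd, of the IgD class that naive B cells carry, fell by 2.50 (adjusted p = 2.65e-07) and 4.97 (adjusted p = 1.47e-09). Among lambda constant genes, Iglc2 (-1.34 and -1.57) and Iglc3 (-1.49 and -2.35) fell as Iglv3 did, while Iglc1 (0.40 and 0.68) was not called. Iglc2 and Iglc3 are near-identical copies, so their division is uncertain.

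Of 8 plasma cell genes, 5 rose against steady state in the joint and 6 in the skin, with none lower, and Jchain rose by 4.79 (adjusted p = 1.47e-07) and 6.39 (adjusted p = 1.24e-08). Cd79a fell by 2.31 (adjusted p = 1.46e-06) and 4.16 (adjusted p = 9.09e-09), as did its partner Cd79b. Of the 6 tested genes of V(D)J recombination and the surrogate light chain, 5 fell in joint migrated against joint nonmigrated cells, 6 fell in joint migrated cells and 4 in skin migrated cells against steady state, and 1 rose in skin migrated against skin nonmigrated cells. Rag1, a subunit of the recombinase that joins V segments, was 8.59, 4.98 and 46.4 CPM in joint nonmigrated and 0.0411, 0.0234 and 0.0429 in joint migrated cells (-8.95, adjusted p = 9.65e-05). Pou2af1, the coactivator of the octamer factors that bind V promoters, rose in migrated against nonmigrated cells (2.04, adjusted p = 0.000721, in the joint and 5.40, adjusted p = 4.47e-06, in the skin) and was lower than at steady state (-1.55 and -2.25).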

How the data were processed

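Pools of CD45+ leukocytes from mouse joint, ear and draining nodes, sorted as Kaede red+ per the labels' shared protocol, were profiled by RNA-seq in 18 libraries, 6 groups of 3. The unit of the table is raw counts: the authors deposited whole-number read counts per Ensembl gene, made after FastQC and Trim Galore by TopHat2 alignment of paired 100-base reads to mm10 with Ensembl 87 gene models and by HTSeq in its default mode, which drops reads that are not unique. Replicates were not merged. The 5 summary lines of the counter were left out of library sizes: reads with no feature were 0.0925 to 0.562%, and the shares that were not unique or ambiguous are given in the report. GENCODE M21 on the same build gave symbols, positions and sequence for 49326 of 49585 genes.

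From the deposited counts, CPM values were computed with TMM factors over all 18 libraries. The 12 inflamed libraries and the 12 lymph node libraries were each fitted with edgeR 4.0.16 (filterByExpr with a minimum count of 10, quasi-likelihood F test, Benjamini-Hochberg adjustment over all genes, group as the only factor) in R 4.3.3 with limma 3.58.1. Calls needed an adjusted p under 0.05 and a log2 fold change beyond 1 in either direction, the thresholds of the study's methods. DESeq2 1.42.0 and the other alternatives were run as described at the end. Usage is a member's share of its locus reads, diversity the inverse Simpson index with the estimator free of depth bias, and both are given per library with no test. Wilson 95% intervals of shares, exact 95% intervals of count ratios and the floor of 3 counts per library cover counting error only. Tables and figures used Python 3.11.15 and matplotlib 3.10.9. The fit of the inflamed libraries was tried on simulated counts with a single spread for all genes. Changes were set only in joint migrated against joint nonmigrated cells and for genes above a minimum count. The simulation thus does not cover the lymph node fit, the interactions or genes with no read in a group.

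The members, gene lists and rules were chosen with earlier results of these data known. Named genes were the 8 most used Ighv and Igkv members and every Iglv member, up to 3 called members per direction and comparison, ranked by adjusted p, the leading member of each library, the members whose share differed most between nonmigrated and migrated cells, the genes next to the count minimum, and partner genes from lists. Ighv12-3, Igkv4-91 and Igkv6-25 were named outside this rule after their values were seen. Values of 1 partner list are not reported here.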

Additional observations from a re-analysis of the deposited data

Results flagged for a closer look

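The changes below differed between joint and skin by a test of the difference itself, edgeR's interaction term with Benjamini-Hochberg adjustment over all genes. In the inflamed groups, site cannot be told apart from the split of libraries by total and column name. In the steady-state groups, it cannot be told apart from the titles PBS (joint) and Naive (ear). For the change from nonmigrated to migrated cells, 109 of 178 members tested differed, all more positive in the skin, against 2.17% of all genes more positive in the skin and 3.96% in the joint. Named among them were Ighv1-39 (-9.86 on the log2 scale, joint minus skin), Igkv1-135 (-6.80) and Igkv8-30 (-12.11). Ighv1-39 and Igkv8-30 had no read and Igkv1-135 had 4 reads in skin nonmigrated cells, so these fitted sizes depend on the prior count.

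For the change from steady state to migrated cells, 27 of 201 members tested differed, 25 of them more positive in the skin, against 3.78% of all genes in the skin and 2.33% in the joint, and leaving out 1 library gave 8 to 46. Igkv4-59 changed by -0.19 in the joint and 1.57 in the skin (difference -1.75, adjusted p = 0.0015), and only 1.49% of its windows are distinct from other V genes. Ighv3-8 changed by 0.09 in the joint and 4.42 in the skin (difference -4.34, adjusted p = 0.00198), and Ighv10-1 by -0.25 and 1.79 (difference -2.04, adjusted p = 0.00404). Igkv2-137 was 1 of the 2 members more positive in the joint, with 2.02 against 0.33 (difference 1.69, adjusted p = 0.0317). The other was Igkv4-81, with 0.103, 0.911 and 0.386 CPM in joint migrated and 0.445, 0.417 and 0.222 in joint steady-state cells against 0 in all 3 skin migrated libraries (fitted difference 7.73, adjusted p = 0.0212, which depends on the prior count).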

How the results depend on the processing

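Few reads in skin nonmigrated cells (45 to 567 V counts) and near-identical genes limit the usage values. A threshold of 0.001 on the adjusted p left 10 of 64 calls for joint migrated against nonmigrated cells, 43 of 134 for joint against skin nonmigrated, 0 of 2 for joint against skin migrated, 15 of 45 and 48 of 117 for joint and skin migrated cells against steady state, 6 of 109 for the interaction of site and migration and 0 of 27 for that of site and inflammation. The fit of all 18 libraries gave 102 calls for joint migrated against nonmigrated, 13 for joint against skin migrated, 29 for joint migrated against steady state and 8 for the interaction of site and inflammation. With no filter on low counts, joint against skin migrated cells gave 9, the steady-state nodes 1 and the interaction of site and inflammation 57. DESeq2's Wald test gave 12 for joint against skin migrated. The shares of all genes under these settings are not given, and the causes were not tested.

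The replicate block gave 5 calls for joint against skin migrated cells and otherwise stayed within 1.5 times the counts. The replicate numbers share only a number: correlations of same-numbered deviations ran from -0.353 to 0.254, and in no comparison did every pair exceed 0.1. Leaving out 1 library gave 41 to 71, 158 to 167, 109 to 128, 0 to 3, 26 to 55, 100 to 128 and 0 to 0 calls in the 7 comparisons in the order of the report, and 80 to 120 and 8 to 46 for the interactions. Joint against skin migrated cells gave 0 without each joint migrated library and 1 without skin migrated 3.

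In the joint steady-state node the effective number of Ighv genes (49.23) was 48.58 with functional members only and 48.16 per transcript length, that of Igkv genes (43.04) 42.57 and 43.57, and the summed level (1052 CPM) 1138 with plain library totals. Leaving out 1 library gave effective numbers, for joint nonmigrated, joint migrated, joint steady-state, skin nonmigrated, skin migrated and skin steady-state cells, of 45.16 to 49.63, 39.4 to 43.37, 49.08 to 49.49, 8.577 to 18.82, 18.54 to 31.87 and 48.44 to 49.92 for Ighv and 33.27 to 36.85, 32.61 to 33.97, 42.83 to 43.29, 10.11 to 23.59, 17.56 to 23.21 and 42.58 to 43.26 for Igkv. The summed levels were 473.7 to 709.7, 1343 to 1834, 1036 to 1074, 5.82 to 19.21, 2376 to 3537 and 709.5 to 832.3 CPM. Of 3456 values of named genes under an alternative, 3282 kept their direction and side of the threshold, 133 lost and 41 gained a call, and 0 reversed. Of 158 calls of named genes, 135 held without each library. The interactions' alternatives and transcript length were chosen after seeing the data.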
